A study of Mus musculus with 30 samples.

Results

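Kinesins are motor proteins that walk along microtubules, and in growing mouse myoblasts their RNA levels were compared between sorted cell-cycle fractions. The kinesin genes were taken by name, as every mouse symbol that starts with Kif and a digit, or with Kifc and a digit. Among 46078 counted genes, 47 had such a symbol, and 3 pseudogenes were left out, which left 44 genes. Among these, Kif1bp encodes a protein that binds kinesins. Kif16bos is an RNA gene beside Kif16b, on the opposite strand and without overlap, so 42 genes encode motors. By known function 14 of the motors work on the mitotic spindle, 15 carry cargo, and 13 have other or less settled roles. The RNA came from C2C12, an established mouse cell line of muscle precursors (myoblasts), grown in 20% serum. Cells were stained for 15 minutes with Hoechst, a DNA dye, and a sorter then parted those in G1 from those in S and those in G2/M. All 3 fractions share the line, the medium and the staining. The labels name no drug and no genetic change in any group, and the question the RNA addresses is which genes differ in level between the phases of the cycle.

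During mitosis a cell rebuilds its microtubules into a bipolar spindle, and spindle kinesins push the poles apart, move chromosome arms, trim microtubule ends and build the central spindle at which the cell divides. Cargo kinesins haul vesicles, mitochondria, endosomes and cilium components along microtubules at all times. In proliferating cells many spindle kinesins are made mainly in G2 and mitosis and degraded afterwards, while the main cargo kinesins are general housekeeping proteins.

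Each phase had 2 columns of counted fragments, which the titles call replicates 1 and 2, with between 16109055 and 18103769 per column. The columns of a phase differed by about counting noise, with a chi-square over its degrees of freedom of 1.00 for the G1 pair, 1.03 for the S pair and 1.15 for the G2/M pair (1.04 there without the gene model Gm17082). The kinesins behaved alike, since 3 of 98 pairs of columns differed beyond a 95% counting interval (Kif24 and Kif1b in G1, and Kif13b in S). Both columns of a phase were therefore added up and treated as 1 sample, so differences between phases have no replicate check and no test, and every interval covers counting error only. Levels are given in CPM, the share of a library's fragments times 1000000, after scaling. With no fragment counted, the level may still reach 0.0936 CPM (G1), 0.0838 CPM (S) or 0.0826 CPM (G2/M). A gene was compared between 2 phases if it reached 10 CPM in at least 1 of them, and called higher or lower at 2-fold or more. Being shares of a library, such values cannot tell apart fewer cells of a kind and less RNA per cell.

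The sorted fractions were first compared with marker genes. Ccnb1, the cyclin of mitotic entry, stood at 74.4, 243 and 390 CPM in G1, S and G2/M. Of the other G2/M markers, Ube2c stood at 14.2, 40.9 and 108 CPM in the same order. Cdc20 stood at 104, 89.9 and 205 CPM, lower in S than in G1 and 1.96-fold higher in G2/M than in G1. Cdc6, which loads the replicative helicase and is known from the G1/S transition, stood at 140, 11.2 and 24.2 CPM, so the S fraction was below the G1 fraction. Mcm3, a helicase subunit, stood at 371, 140 and 122 CPM in the same order. The sort gates are not given in the sources used here, so a value called highest in S is that of the fraction labelled S. A lot is named in the titles of the S columns alone, so in any comparison with S a difference of lot and one of phase cannot be told apart. Of the myoblast markers Des, Itga7, Cdh15 and Myf5 were well above 10 CPM in every fraction, Myod1 stood between 5.73 and 6.65 CPM, Pax7 had 119 fragments in G2/M and 0 elsewhere, Myog had 80, 0 and 42 fragments in G1, S and G2/M, and Pax3 had 0. Of 11 markers of other cell types 7 had no fragment in any fraction, and 1 reached 10 CPM, the neuronal tubulin Tubb3, which carried nearly all of the summed level of 253, 133 and 254 CPM in G1, S and G2/M. Of the other neuronal markers in that list, Rbfox3 had no fragment and Syp had 3, in G2/M alone. Any part of other cell types in the kinesin levels was not tested.

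Between G2/M and G1 the spindle kinesins stood apart from the cargo kinesins. Of the 14 spindle kinesins 13 were measured, and in 11 of these the G2/M level was at least 2-fold that of G1, against a background of 9.98% of all 8848 genes compared. None of the 13 was 2-fold lower, against 9.86% of all genes. Their median log2 ratio was 1.34, where that of all genes was -0.01. Without Kif20a, Kif2a and Kif4, which share at least 10% of their exon bases with a counted gene, it was 2.08. Leaving these out was chosen after seeing the data. Of the 15 cargo kinesins 11 were measured in this comparison, with a median of 0.16, and 1 was 2-fold higher (Kif16b) and 2 were 2-fold lower (Kif5c and Kifc3). Low genes scatter more, so the count was also made over those averaging 50 CPM or more over the 3 fractions. Among these, 8 of 10 spindle kinesins and 0 of 4 cargo kinesins were 2-fold higher, beside 3.87% of 4239 genes, and none was 2-fold lower, beside 2.64% (6.51% in either direction).

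**Figure D1:**
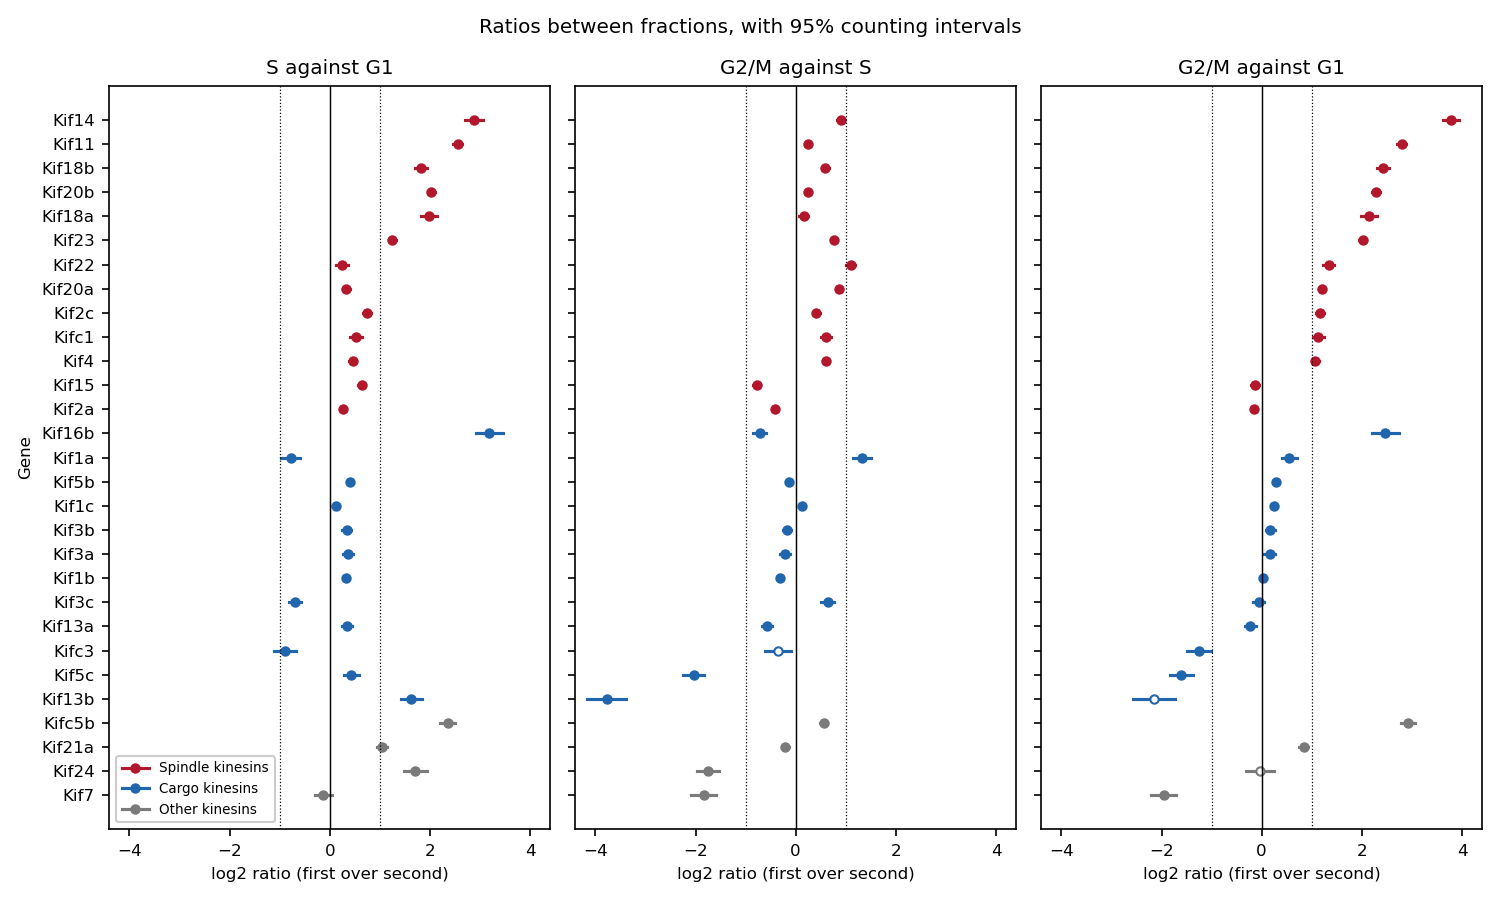
Log2 ratio of the first over the second fraction for the 29 measured kinesin motors (points) with 95% counting intervals (bars), in 3 comparisons. Dotted lines mark 2-fold, and open points are genes under 10 CPM in both fractions. In G2/M against G1, 11 of 13 spindle kinesins lie beyond the right dotted line, while most cargo kinesins lie near 0.

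The step from G1 to S and the step from S to G2/M contributed unequally. Between S and G1 all 13 measured spindle kinesins had a higher value in S, 6 of them at least 2-fold, beside 8.63% of 8773 genes, and none was 2-fold lower, beside 8.61%. Their median log2 ratio was 0.75, against -0.01 for all genes. It was 1.00 without Kif2a and 1.54 without the 3 spindle kinesins that share at least 10% of their exon bases with another gene (Kif20a, Kif2a and Kif4). Between G2/M and S 11 of 13 had a higher value in G2/M, but 1 alone, Kif22, reached 2-fold, beside 7.08% of 8751 genes. The median was 0.59, and 0.50 without those with shared bases, against 0.00 for all genes. The 12 cargo kinesins measured between S and G1 had a median of 0.34, with 2 at least 2-fold higher in S (Kif16b and Kif13b). From S to G2/M the 11 measured had a median of -0.22, with 1 at least 2-fold higher (Kif1a) and 2 at least 2-fold lower (Kif13b and Kif5c), beside 6.64% of all genes. At an average of 50 CPM or more over the 3 fractions, 5 of 10 spindle kinesins and 0 of 4 cargo kinesins were 2-fold higher in S than in G1, beside 3.54% of all such genes, and none of either list was 2-fold lower, beside 2.01% (5.54% in either direction). For G2/M against S, 0 of the 14 kinesins in these lists at that level differed 2-fold either way, beside 0.849% of such genes higher and 1.53% lower (2.38% in all).

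Among the motors that set up a bipolar spindle, Kif11, which slides antiparallel microtubules so that the poles move apart, showed the widest difference. Its columns stood at 36.8 and 36.5 CPM in G1, 215 and 217 CPM in S, and 256 and 254 CPM in G2/M. Both columns of each fraction lay close together, and the G1 columns were far below the rest. The gene (ENSMUSG00000012443) lies on chromosome 19 from 37376403 to 37421859 in GRCm38. Its G2/M level was 6.96-fold that of G1, with a log2 ratio of 2.80 (interval 2.71 to 2.89), and exceeded its S level by 1.18-fold there. Kif15, a motor that can take over part of the work of Kif11, had another course, with 76.0 and 76.0 CPM in G1, 120 and 117 CPM in S, and 69.1 and 69.3 CPM in G2/M. It was thus highest in S, with a log2 ratio of -0.78 (interval -0.85 to -0.71) between G2/M and S, and below its G1 level in G2/M by a log2 ratio of -0.14 (interval -0.22 to -0.05). Kifc1, a minus-end motor that focuses the poles, stood at 27.4 and 27.1 CPM in G1, 38.7 and 39.9 CPM in S, and 60.1 and 59.1 CPM in G2/M. That made it 2.19-fold higher in G2/M than in G1.

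A close copy of Kifc1 on the same chromosome, Kifc5b, was counted apart from the list. Its columns stood at 14.1 and 15.2 CPM in G1, 74.7 and 75.2 CPM in S, and 112 and 109 CPM in G2/M, a ratio of 7.53-fold between G2/M and G1. No option on reads that match both copies was named, which leaves the value of each gene, and that of their sum, uncertain. With the fragments of both genes summed, the pair stood at 41.9, 114 and 170 CPM in G1, S and G2/M, 4.06-fold higher in G2/M than in G1.

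The chromosome-arm motors differed in timing. Kif22, which pushes chromosome arms towards the spindle equator, stood at 30.5 and 31.4 CPM in G1, 36.9 and 36.2 CPM in S, and 78.1 and 78.2 CPM in G2/M. G1 and S were close and G2/M stood clear of both, with a ratio of 2.14-fold between G2/M and S (log2 ratio 1.10, interval 1.00 to 1.19). Kif4, which acts on chromosome arms and limits the length of the central spindle, stood at 83.9 and 81.3 CPM in G1, 117 and 111 CPM in S, and 176 and 172 CPM in G2/M. Its G2/M level was 2.105-fold that of G1, with 1.38-fold between S and G1 and 1.53-fold between G2/M and S. Pdzd11 overlaps 15.1% of its exon bases from the opposite strand. No option on strand or gene overlap was named, and the part of that overlap in the Kif4 value was not tested.

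Motors that act at microtubule ends were split. Kif18a, which damps the swings of chromosomes on the metaphase plate, stood at 13.998 and 12.7 CPM in G1, 50.8 and 54.3 CPM in S, and 58.3 and 59.5 CPM in G2/M. Most of its difference lay between G1 and S, at 3.95-fold, and G2/M was 1.12-fold above S. Kif18b, which shortens astral microtubules, stood at 22.2 and 22.7 CPM in G1, 79.5 and 79.9 CPM in S, and 117 and 123 CPM in G2/M, or 5.34-fold higher in G2/M than in G1. Kif2c, a microtubule depolymerase of the centromere, stood at 55.4 and 53.6 CPM in G1, 90.1 and 93.0 CPM in S, and 124 and 120 CPM in G2/M. Its relative Kif2a, which depolymerises microtubules at spindle poles and also in neurons, differed little, with 170, 206 and 154 CPM in G1, S and G2/M. Kif2a was thus the other spindle kinesin, beside Kif15, that was highest in S, and 17.4% of its exon bases overlap Dimt1 on the opposite strand. Kif2b, the third depolymerase of this group, had no fragment in any column.

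In all 4 motors of the central spindle and cytokinesis the G2/M level was at least 2-fold that of G1, beside 9.98% of all genes. Kif14, which works in cytokinesis with Prc1 and citron kinase, had the largest ratio of the measured motors in that comparison. Its columns stood at 9.98 and 9.69 CPM in G1, 72.8 and 71.9 CPM in S, and 138 and 133 CPM in G2/M. From G1 to G2/M this is 13.8-fold, a log2 ratio of 3.78 (interval 3.62 to 3.95), and the fractions follow each other with no overlap of columns. Kif14 (ENSMUSG00000041498) lies on chromosome 1 from 136466343 to 136531511. Kif23, the motor of the centralspindlin complex, stood at 74.95 and 73.9 CPM in G1, 179 and 175 CPM in S, and 299 and 303 CPM in G2/M, or 4.04-fold higher in G2/M than in G1. It lies on chromosome 9 from 61917280 to 61946799.

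The other two of this group had opposite timing. Kif20b, which acts late in cytokinesis, stood at 55.4 and 57.2 CPM in G1, 232 and 229 CPM in S, and 273 and 276 CPM in G2/M. Its 4.09-fold difference between S and G1 was followed by 1.19-fold between G2/M and S. Kif20a, which carries the chromosomal passenger complex to the central spindle, stood at 96.7 and 96.7 CPM in G1, 124 and 120 CPM in S, and 221 and 224 CPM in G2/M. There the first step was 1.26-fold and the second 1.83-fold, so that S was near G1. Cdc23 overlaps 33.2% of the exon bases of Kif20a from the opposite strand, and had 1277, 2410 and 3475 fragments in G1, S and G2/M. The part of that overlap in the level of Kif20a, upward or downward, was not tested.

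**Figure D2:**
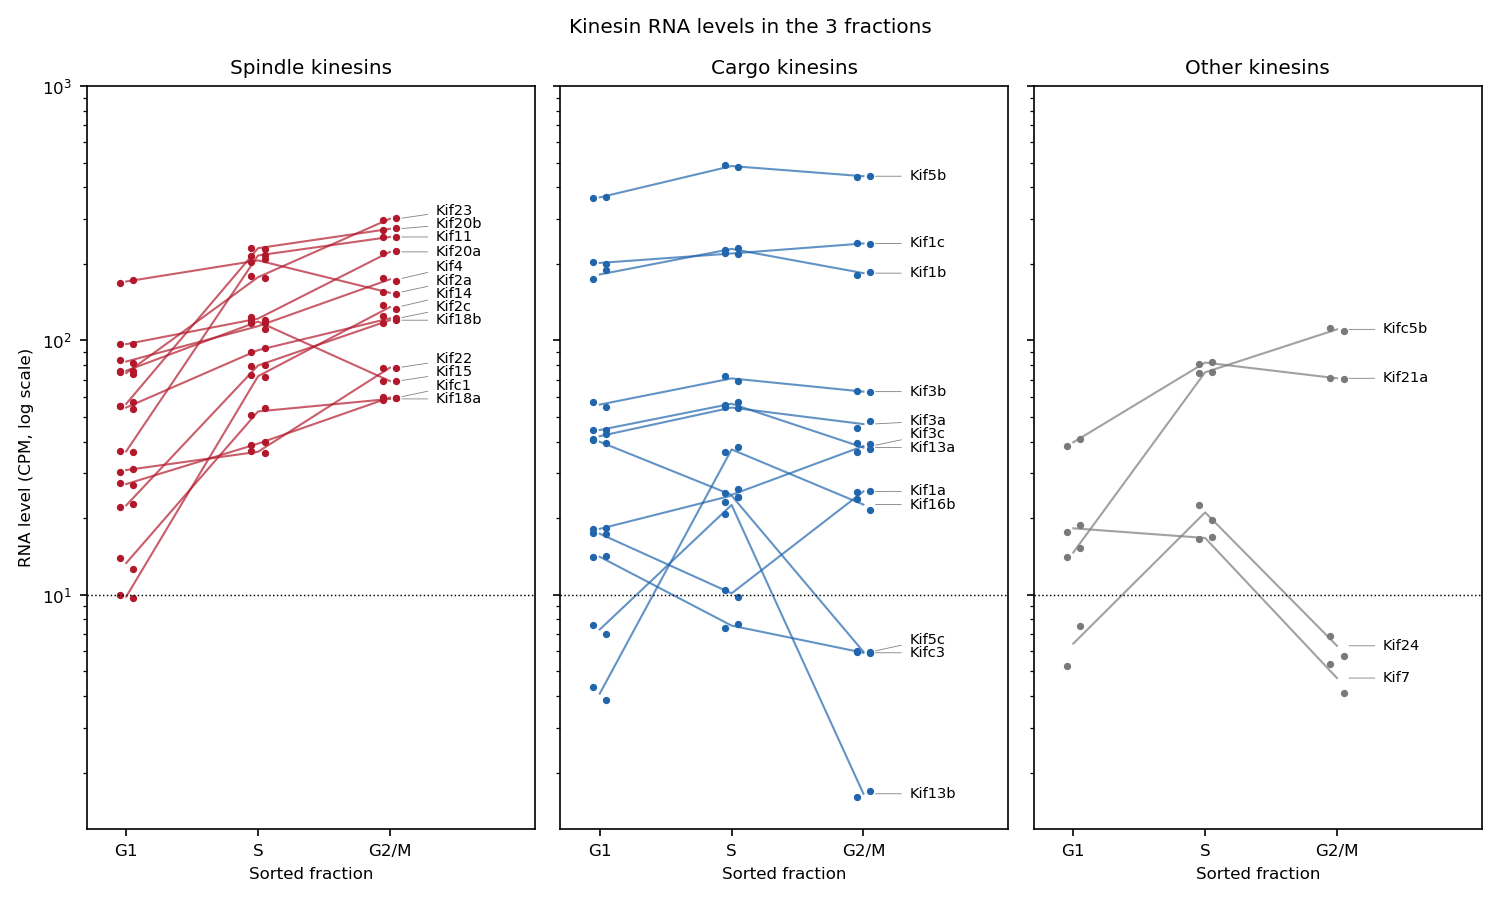
RNA level in CPM (log scale) of the 29 measured kinesin motors in the 3 sorted fractions, by role. Points are the 2 columns of each fraction, lines join the summed values, and the dotted line marks 10 CPM. Of 13 spindle kinesins 11 lie in the order G1, S, G2/M from low to high, as does 1 of 12 cargo kinesins, Kif1c.

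Because many spindle kinesins were high together, their promoters were searched for short elements known from cell-cycle genes. The cell-cycle homology region (CHR), bound by the MuvB complexes that control G2/M genes, was searched as TTTGAA or TTTAAA. The box CCAAT, bound by the factor NF-Y, was searched as such, and E2F-type sites as TTTGGCG or TTCCCGC. Of these, TTTAAA reads the same on both strands. All were sought on either strand in RefSeq promoters of build GRCm38.p6, from 250 bases before to 50 after each transcript start. Such promoters were found for 33 of the 42 motors. The shown promoters are examples picked with their values and matches known, namely those of Kif11, Kif14 and Kif23, which have CHR-type and CCAAT matches, of Kif18a, which differed 4.42-fold and has neither, of Kif15, highest in S, and of the cargo motors Kif1c and Kif3b, nearly level across the fractions. They lie at chr19:37376132-37376431 (plus strand), chr1:136467598-136467897 (plus), chr9:61946750-61947049 (minus), chr2:109280488-109280787 (plus), chr9:122950831-122951130 (plus), chr11:70700298-70700597 (plus) and chr2:153291166-153291465 (plus). Each is written 5′ to 3′ on the strand of the gene, with CHR-type and CCAAT matches of either strand in capitals.
Kif11: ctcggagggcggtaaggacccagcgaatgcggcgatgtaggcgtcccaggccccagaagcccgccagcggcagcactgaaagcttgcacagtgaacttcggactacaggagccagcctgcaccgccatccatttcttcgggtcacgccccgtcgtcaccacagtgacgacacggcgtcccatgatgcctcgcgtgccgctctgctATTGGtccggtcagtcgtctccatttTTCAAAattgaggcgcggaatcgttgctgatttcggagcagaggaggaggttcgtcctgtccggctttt
Kif14: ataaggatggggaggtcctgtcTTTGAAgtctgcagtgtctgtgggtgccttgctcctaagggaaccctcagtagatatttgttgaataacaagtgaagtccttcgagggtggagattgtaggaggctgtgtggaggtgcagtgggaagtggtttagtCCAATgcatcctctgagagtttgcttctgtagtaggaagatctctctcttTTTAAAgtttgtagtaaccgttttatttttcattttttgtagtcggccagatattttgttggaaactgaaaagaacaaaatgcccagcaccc
Kif23: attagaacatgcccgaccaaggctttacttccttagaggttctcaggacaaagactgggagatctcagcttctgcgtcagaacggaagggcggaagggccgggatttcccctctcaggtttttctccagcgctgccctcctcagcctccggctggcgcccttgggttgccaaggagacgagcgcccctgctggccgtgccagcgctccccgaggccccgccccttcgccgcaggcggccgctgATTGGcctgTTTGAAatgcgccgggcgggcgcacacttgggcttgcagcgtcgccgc
Kif18a: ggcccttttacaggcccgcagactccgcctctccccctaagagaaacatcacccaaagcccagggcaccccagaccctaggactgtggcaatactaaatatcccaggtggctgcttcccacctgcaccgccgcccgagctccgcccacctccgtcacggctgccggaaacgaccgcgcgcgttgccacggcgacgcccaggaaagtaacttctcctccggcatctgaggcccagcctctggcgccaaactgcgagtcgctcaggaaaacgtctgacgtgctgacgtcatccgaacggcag
Kif15: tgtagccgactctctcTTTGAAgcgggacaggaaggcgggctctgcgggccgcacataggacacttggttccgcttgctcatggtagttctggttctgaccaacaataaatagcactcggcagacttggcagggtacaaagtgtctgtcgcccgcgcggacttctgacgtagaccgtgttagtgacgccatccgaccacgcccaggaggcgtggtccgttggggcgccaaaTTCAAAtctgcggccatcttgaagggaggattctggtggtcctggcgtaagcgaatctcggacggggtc
Kif1c: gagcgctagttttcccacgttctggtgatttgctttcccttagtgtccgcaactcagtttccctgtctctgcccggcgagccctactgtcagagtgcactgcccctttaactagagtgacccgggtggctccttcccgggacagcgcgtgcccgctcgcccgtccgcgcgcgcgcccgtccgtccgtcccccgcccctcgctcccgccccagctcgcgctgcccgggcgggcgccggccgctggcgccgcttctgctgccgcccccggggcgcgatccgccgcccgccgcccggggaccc
Kif3b: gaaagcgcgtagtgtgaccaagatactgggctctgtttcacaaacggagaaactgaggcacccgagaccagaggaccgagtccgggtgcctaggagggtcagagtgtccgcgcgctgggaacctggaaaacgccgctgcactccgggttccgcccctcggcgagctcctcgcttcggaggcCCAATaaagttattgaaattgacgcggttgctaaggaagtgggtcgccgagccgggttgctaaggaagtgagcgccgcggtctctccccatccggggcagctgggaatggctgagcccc

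In the Kif11 promoter the CHR-type match, read on the opposite strand, spans positions -19 to -14 and the CCAAT match -45 to -41, counted from the start with no position 0. In Kif23 the CHR-type match lies at 3 to 8 and a CCAAT match just before the start, at -7 to -3. The listed Kif14 promoter has TTTAAA at -42 to -37 with CCAAT at -92 to -88, and a further TTTGAA far upstream. That window begins at 136467598 on chromosome 1, inside the counted gene, which begins at 136466343. It is thus not the sequence before the first counted exon of Kif14. In Kif15 a TTTGAA on the opposite strand at -19 to -14 lies beside an E2F-type match at -26 to -20, and no CCAAT match was found. The Kif18a promoter held an E2F-type match alone, on the opposite strand at -9 to -3. The Kif1c promoter held none of these letters, and Kif3b held CCAAT alone.

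Counted over the list, 10 of 13 spindle kinesins with a promoter (76.9%) held a CHR-type match, as did 1 of 10 cargo kinesins, Kif1a, in the second of its listed promoters. Among all 27025 genes with a listed promoter, 30.6% held one, and of the 7163 that reached 10 CPM in some fraction 21.8%. A CHR-type match within 50 bases of the start, a window chosen after the positions were seen, was held by 9 of 13 spindle kinesins, 1 of 10 cargo kinesins and 6.25% of the genes that reached 10 CPM. Both a CHR-type and a CCAAT match in 1 promoter were found in 7 of 13 spindle kinesins, 0 of 10 cargo kinesins and 9.16% of those genes. Among the kinesins in neither list, 3 of 10 held both (Kifc5b, Kif26b and Kif27), and these were also the 3 of 10 with a CHR-type match. Of them Kif26b was under 10 CPM and Kif27 had no fragment. E2F-type matches were found in 3 of 13 spindle kinesins (Kif15, Kif18a and Kif2a) and 1 of 10 cargo kinesins (Kif1b). Of the genes that reached 10 CPM, 13.4% held one. CCAAT matches, with or without a CHR-type match, were less uneven. They were found in 8 of 13 spindle kinesins, 3 of 10 cargo kinesins and 5 of 10 in neither list, beside 43.2% of the genes that reached 10 CPM. Of the 13 spindle kinesins with a promoter, those without a CHR-type match were Kif18a, Kif2a and Kif2b. Kif20a had no listed promoter, and neither did the cargo kinesins Kif5a, Kif5b, Kif13b, Kifc2 and Kifc3. These 13 spindle kinesins are thus not the 13 measured ones, since they include Kif2b and lack Kif20a. Kif14 is in each of the spindle counts of CHR-type matches, though its listed window lies inside the counted gene. A match of so few letters is a description of the sequence and does not show that a factor binds there.

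**Figure D3:**
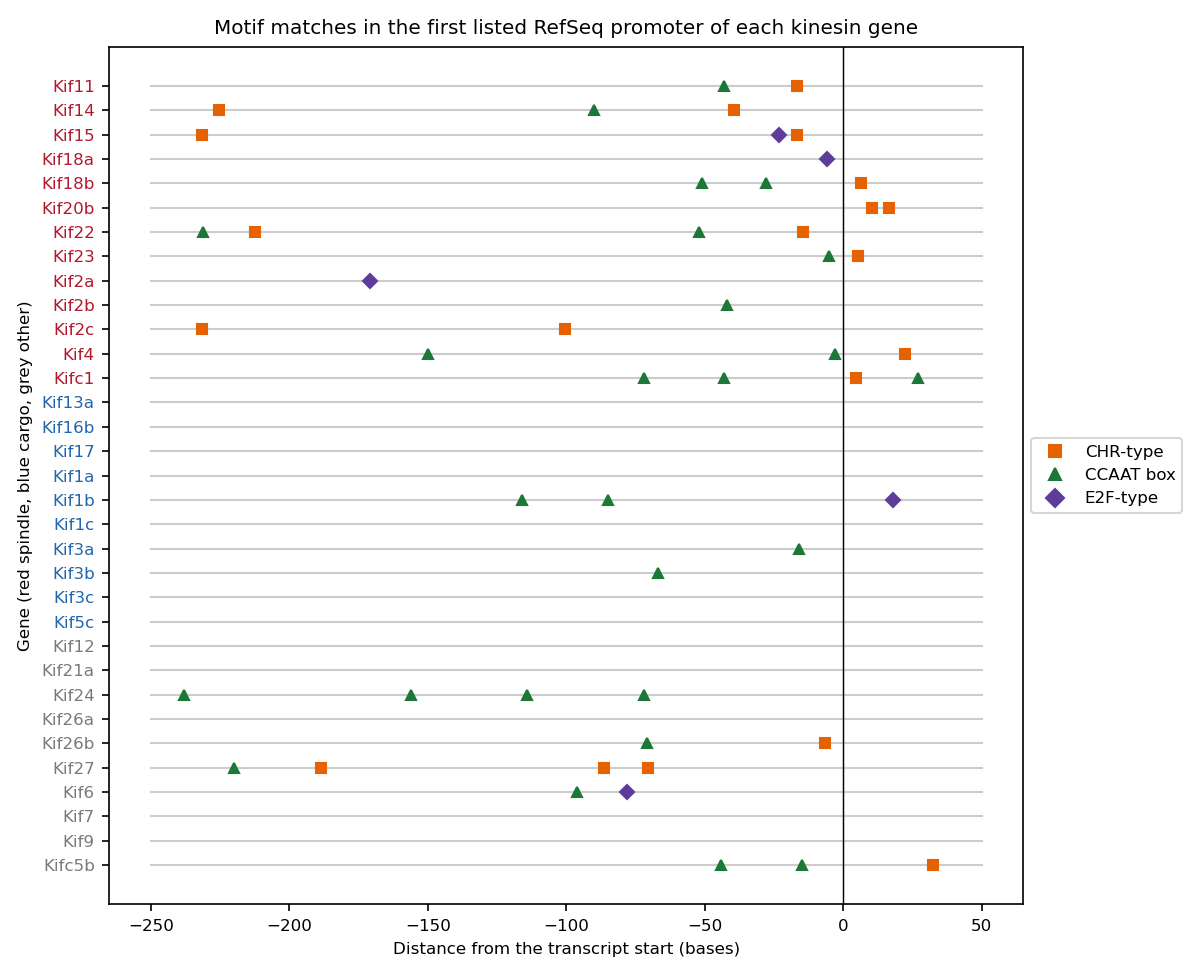
Positions of motif matches on either strand in the first listed promoter of 33 kinesin genes, in bases from the transcript start. Orange squares are CHR-type, green triangles CCAAT and purple diamonds E2F-type matches. Squares lie near the start in most spindle kinesins and in no cargo kinesin shown; the Kif1a match lies in a second promoter that is not drawn.

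Cargo motors of the kinesin-1 group are headed by Kif5b, the conventional kinesin heavy chain of most tissues. Among the kinesins taken by name it had the highest CPM in each fraction. Its columns stood at 363 and 367 CPM in G1, 491 and 478 CPM in S, and 439 and 444 CPM in G2/M. S was highest, but by 1.33-fold over G1 only, with a log2 ratio of 0.41 (interval 0.38 to 0.44). The paralog Kif5c, best known from neurons, stood at 18.1 and 18.2 CPM in G1, 23.1 and 26.0 CPM in S, and 5.997 and 5.95 CPM in G2/M, or 4.11-fold lower in G2/M than in S. Kif5a, also a neuronal form, had 63 fragments in G1 and 2 each in S and G2/M, below the 10 CPM minimum.

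Kinesin-2 motors drive transport in cilia, and the heterodimer partners Kif3a and Kif3b ran nearly in parallel. Kif3a stood at 42.05, 54.5 and 46.9 CPM in G1, S and G2/M, and Kif3b at 55.9, 70.9 and 62.9 CPM. Both were about equally higher in S than in G1, by log2 ratios of 0.37 (interval 0.27 to 0.47) and 0.34 (interval 0.25 to 0.43). Kif3c, an alternative partner of Kif3a, went the other way, with 39.95, 24.7 and 38.4 CPM. It was lowest in S, and 38.2% of its exon bases overlap an opposite-strand gene model that had 28, 188 and 199 fragments in G1, S and G2/M. The part of that overlap in the Kif3c value was not tested.

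Among the kinesin-3 motors, which carry vesicles and endosomes, the abundant ones differed little and the scarce ones widely. Kif1c, which moves vesicles and helps cell adhesion, stood at 204 and 199 CPM in G1, 222 and 218 CPM in S, and 241 and 240 CPM in G2/M. Its 1.19-fold difference between G2/M and G1 was the smallest highest-to-lowest ratio of any measured cargo kinesin. Kif1b, a motor of mitochondria and vesicles, stood at 182, 229 and 184 CPM, and G2/M and G1 were not told apart by counting (log2 ratio 0.02, interval -0.03 to 0.07). Kif13a, which works in endosome recycling, stood at 44.4, 56.4 and 37.9 CPM.

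Kif16b, which binds early endosomes, was the only measured cargo motor at least 2-fold above its G1 level in both S and G2/M. Its columns stood at 4.33 and 3.85 CPM in G1, 36.5 and 38.1 CPM in S, and 23.8 and 21.5 CPM in G2/M. G1 lay far below both other fractions, by 9.12-fold against S (log2 ratio 3.19, interval 2.93 to 3.46). Kif13b, known as a carrier of membrane signalling proteins, stood at 7.60 and 7.02 CPM in G1, 20.8 and 24.3 CPM in S, and 1.61 and 1.69 CPM in G2/M. It was highest in S, and 13.7-fold lower in G2/M than in S (log2 ratio -3.77, interval -4.18 to -3.39). Kif1a, the carrier of synaptic vesicle precursors in neurons, had its low point in S instead, with 17.4, 10.1 and 25.5 CPM in G1, S and G2/M. Of the transport motors of the kinesin-14 group, Kifc3, known from cell junctions, stood at 14.1, 7.57 and 5.92 CPM, and Kifc2 had no fragment.

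Genes of low level differ widely between these libraries, which bears on the scarce cargo motors. Comparing G2/M with S, 24.4% of genes averaging under 50 CPM over the 3 fractions were 2-fold apart. By the mean level of G2/M and S, the share was 29.0% at 10 to 20 CPM and 0.499% at 160 to 320 CPM. In G2/M against G1, 11 of 13 spindle kinesins lay above the range that holds the middle 90% of genes of like level, and so did 1 of 11 cargo kinesins, Kif16b. By construction 5% of all genes lie above that range. In S against G1, 6 of 13 spindle kinesins and Kif16b lay above it, and in G2/M against S 4 spindle kinesins lay above and Kif15 below it. Of the kinesins in neither list, Kifc5b lay above it in S against G1 and in G2/M against G1, and Kif7 lay below it in G2/M against G1. Kif13b, Kif5c, Kif7 and Kif24 lay below it in G2/M against S. The value of Kif13b, -3.77, was beyond the lower edge of -1.55 at its level.

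**Figure D4:**
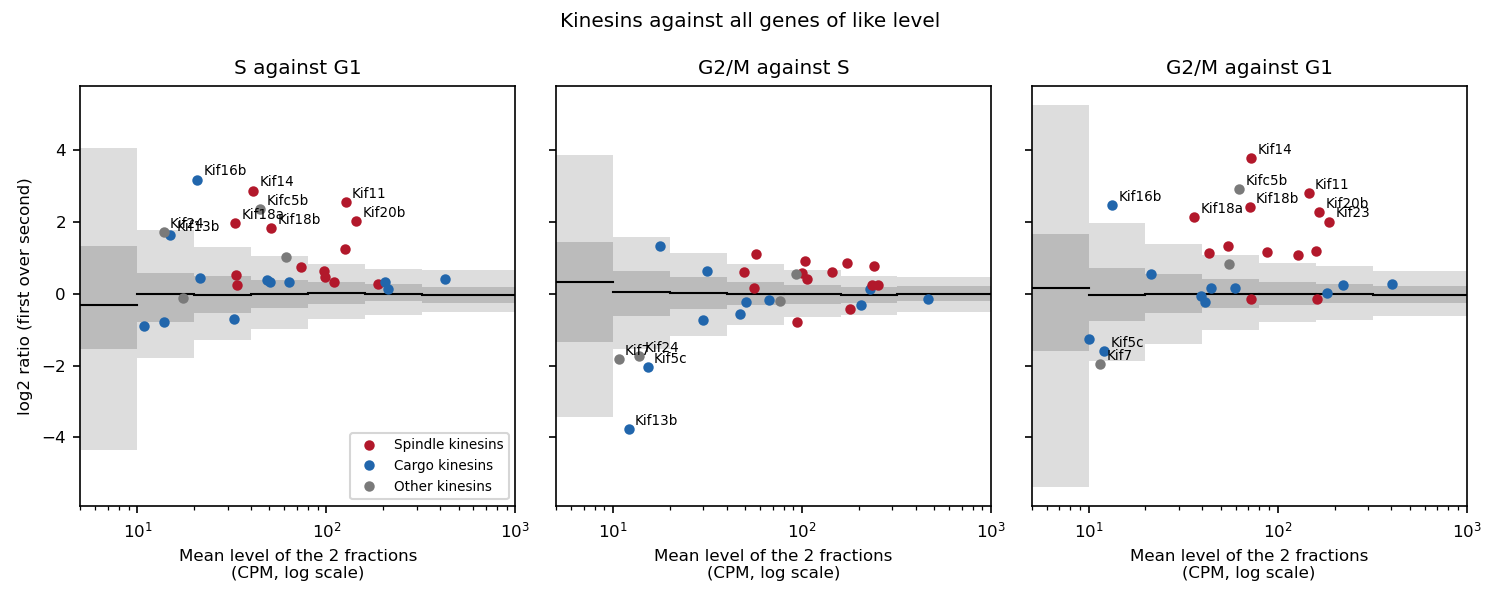
Log2 ratio of the measured kinesins (points) against the mean level of the 2 fractions in CPM (log scale), in 3 comparisons. Dark and light grey hold the middle 50% and 90% of all genes in each level bin and black lines are their medians. The grey range narrows with level, and 11 spindle kinesins lie above it in G2/M against G1.

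Across all genes, long ones had higher ratios of S to G1 than short ones, and many kinesin genes are long. Among genes averaging 50 CPM or more over the 3 fractions, those with at least 6082 exon bases had a median log2 ratio of 0.23 in S against G1, and those with at most 3474 had -0.18. For G2/M against G1 the medians were 0.12 and -0.13. Measured kinesins had 2063 to 17608 exon bases, and all genes of that range at that level had a median of 0.05 in S against G1 and 0.01 in G2/M against G1. The part of length in the kinesin ratios was not tested.

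Set on a scale per kilobase of exon, the kinesin RNA of the 3 fractions differed in amount and in make-up. Summed over all 42 motors the level was 313, 542 and 656 CPM per kb in G1, S and G2/M. Spindle kinesins made up 52.3%, 60.8% and 69.0% of this sum in G1, S and G2/M. The summed level of cargo kinesins lay between 132 and 164 CPM per kb, so their share was 42.035%, 30.4% and 22.5% in G1, S and G2/M. Central spindle and cytokinesis motors had the largest summed level of any role, at 58.3, 132 and 209 CPM per kb. On this scale Kif5b led in G1, at 49.3 CPM per kb against 27.7 for Kif1c, and in S at 65.5. In G2/M Kif23 was first, at 87.9 CPM per kb, above Kif5b at 59.8 and Kif20a at 58.7.

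**Figure D5:**
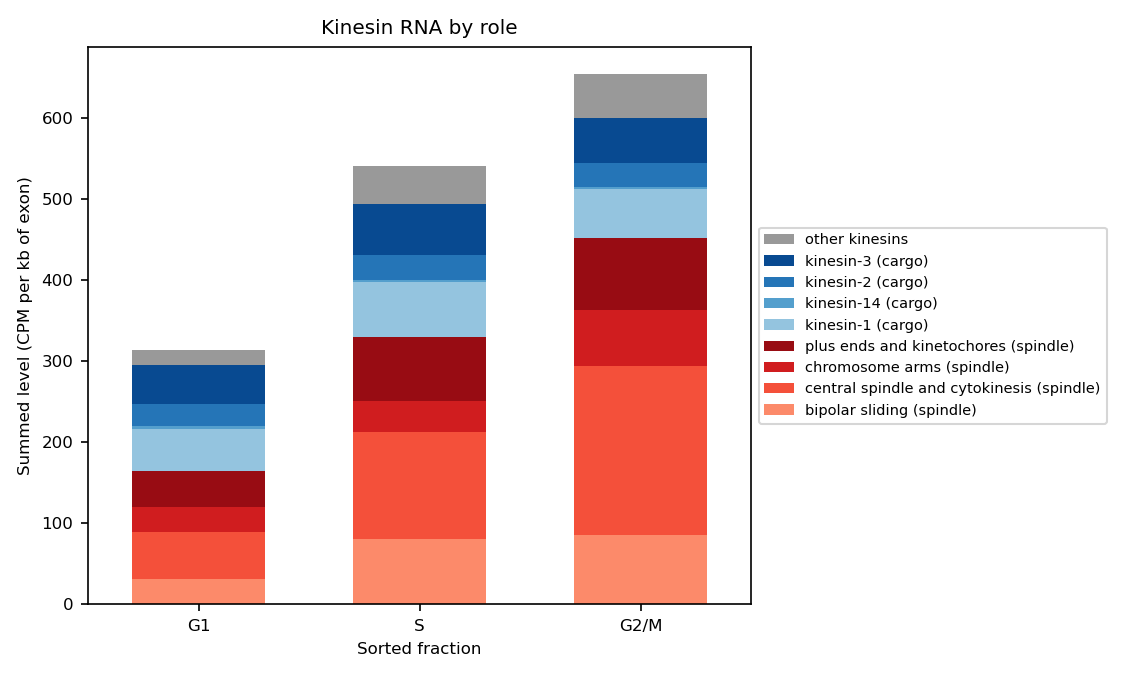
Summed RNA level of kinesin motors by role in each sorted fraction, in CPM per kilobase of exon, stacked from 0. Red shades are spindle roles, blue shades cargo groups and grey other kinesins. The red part is 164 in G1 and 453 in G2/M, and the blue part lies between 132 and 164.

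Of the 13 kinesins in neither list 4 were measured. Kif21a, which restrains microtubule growth, stood at 38.6 and 40.9 CPM in G1, 81.0 and 82.6 CPM in S, and 71.2 and 70.7 CPM in G2/M, or 2.058-fold higher in S than in G1. Kif24, which holds back cilium assembly at the mother centriole, stood at 5.27 and 7.57 CPM in G1, 22.4 and 19.7 CPM in S, and 6.89 and 5.73 CPM in G2/M. It was high in S alone, 3.28-fold above G1, and its G1 columns differed beyond counting error. Kif7, a ciliary regulator of Hedgehog signalling, stood at 18.3 and 16.7 CPM in G1 and S and 4.71 CPM in G2/M, or 3.55-fold lower in G2/M than in S. The fourth was Kifc5b.

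The remaining motors were scarce or not detected. Kif21b had 312, 35 and 36 fragments in G1, S and G2/M, Kif26b had 169, 68 and 16, and Kif9 had 0, 0 and 73, all under 10 CPM. Including Kif2b, Kif17 and Kifc2, 9 of the 42 motors had no fragment in any column, the others being Kif6, Kif12, Kif19a, Kif26a, Kif27 and Kif28. Several of these are known from motile cilia or neurons. Of the genes that are not motors, Kif1bp stood at 45.6, 29.6 and 32.1 CPM, 1.54-fold lower in S than in G1, and Kif16bos had no fragment.

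Proteins that work with the motors were compared in the same way. Cenpe, the kinetochore motor of the kinesin family that the naming rule does not reach, stood at 59.9, 303 and 461 CPM in G1, S and G2/M, or 7.69-fold higher in G2/M than in G1. In 7 of 10 spindle partners the G2/M level was at least 2-fold that of G1, beside 9.98% of all genes, and in none was it 2-fold lower, beside 9.86%. Their median log2 ratio was 1.73. Prc1, which bundles central spindle microtubules and binds Kif4 and Kif14, stood at 116, 315 and 489 CPM. Racgap1, the partner of Kif23 in centralspindlin, was less different, at 357, 419 and 533 CPM, while Kif23 itself was 4.04-fold higher. Hence the 2 subunits of that complex differed in their range, 1.49-fold for Racgap1 between G2/M and G1.

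On the cargo side, light chains and adaptors varied in both directions. Of 8 cargo partners measured in G2/M against G1, none was 2-fold higher, beside 9.98% of all genes, and 1 was 2-fold lower, beside 9.86%. That was the light chain Klc4, at 11.5 CPM in G1 and 3.30 CPM in G2/M. The main light chain Klc1 stood at 191, 170 and 212 CPM in G1, S and G2/M. Among the other partners Trak1 and Trak2, adaptors that link kinesin-1 to mitochondria, were 1.61-fold and 1.53-fold higher in that comparison. Kifap3, which links the Kif3a and Kif3b dimer to cargo, stood at 54.8, 71.6 and 96.5 CPM, so it was highest in G2/M where its motor partners were highest in S. Dynein and dynactin, which move cargo the opposite way, had 21 measured members and none was 2-fold different in any of the 3 comparisons, beside 17.2% of all genes for S against G1, 13.7% for G2/M against S and 19.8% for G2/M against G1. All of them but Dync1i1 and Dctn3 averaged 50 CPM or more over the 3 fractions, where the shares of all genes were lower, at 5.54%, 2.38% and 6.51%, so a count of 0 is near the background. Their median log2 ratios were -0.14, 0.08 and -0.11 for S against G1, G2/M against S and G2/M against G1. The widest ratio among them in G2/M against G1 was that of Nde1, a dynein regulator of mitosis and nuclear movement, at 68.6 CPM in G1 and 131 CPM in G2/M.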

How the data were processed

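RNA-seq of sorted C2C12 fractions was analysed in 6 samples. Another 24 samples, of ChIP-seq, were not used here. The deposited values are counts of fragments per gene from featureCounts 1.5.0-p3, per the file headers, which also give Ensembl annotation of GRCm38 and exons summed to genes. No option on strandedness, repeat alignments or gene overlap appears in that command. HISAT2 2.1.0 and SAMtools 1.6 are named per the submitters' processing notes, and read filters are not given in the sources used here. Symbols were matched for 45143 of 46078 genes.

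Counts of both columns of a phase were summed after the chi-square comparison and scaled by TMM (edgeR 4.0.16, R 4.3.3), over 12244 genes with at least 1 CPM in a phase. The factors were 0.989 (G1), 1.00 (S) and 1.01 (G2/M). Ratios used a floor of 3 fragments, and intervals are exact Clopper-Pearson intervals of the split of fragments. The labels do not say that the columns came from separate cultures, and chi-square p-values were 0.450, 0.0109 and 3.11e-28 in G1, S and G2/M, so the S and G2/M pairs exceeded counting noise slightly. The ratio step was tested on simulated data. Without molecular identifiers PCR duplicates count as separate molecules, and intervals and floors allow for counting error only. Motors that reached 10 CPM in some phase are named with their values, and others where a column held at least 10 fragments. Of the partner lists, members at 2-fold or more and the 4 highest may be named. Trak1, Nde1, Dync1i1 and Dctn3 were named outside this rule, Nde1 after its values were seen. The members, lists and rules were chosen with earlier results of these data known. Promoters are from RefSeq. Alternatives were DESeq2 1.42.0 size factors, library size alone, other minimum levels, each column left out, and changed lists.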

Additional observations from a re-analysis of the deposited data

How the results depend on the processing

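Scaling by DESeq2 size factors or by library size alone moved none of the 87 kinesin ratios outside its counting interval, and by at most 0.0326 on the log2 scale. Leaving out replicate 1 or replicate 2 of each phase changed no 2-fold call of a kinesin, and moved 2 of these ratios outside their intervals, both in S against G1. Kif24 went to 1.38 and 2.09 from 1.71, and Kif1b without replicate 2 to 0.38 from 0.33. No paired analysis was possible because the columns that the titles call replicates 1 and 2 were counted as 1 sample, a choice made from how closely they agree, and a fit that treats them as replicates was not run. The spindle median depended on its membership. Without Kif2a it was 1.00 in S against G1 and 1.68 in G2/M against G1, and the same values came with Kifc5b added, an alternative chosen after seeing the data. Without Kif20a, Kif2a, Kif3c and Kif4, which share at least 10% of their exon bases with a counted gene (also chosen after seeing the data), it was 1.54 in S against G1, 0.50 in G2/M against S and 2.08 in G2/M against G1. With a minimum of 50 CPM it was 1.25 in S against G1. For cargo kinesins that minimum left 0 genes 2-fold different in each of the 3 comparisons (of 6, 6 and 4 measured), so every such cargo call rests on genes of low level. With no filter 5 cargo kinesins were 2-fold different in G2/M against G1, 1 of them higher, and their median was 0.017. All spindle medians kept their sign under every alternative listed here. The depth limits statements on the 9 motors with no fragment to the floors given in the report.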
